A study of Homo sapiens with 15 samples.

Results

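The integrin and laminin chains comprised 38 of the 62700 genes listed in each count table of 143B osteosarcoma cells. They were taken by symbol, as protein-coding genes that start with ITGA or that carry ITGB, LAMA, LAMB or LAMC followed by 1 digit. Among them were 18 integrin alpha chains, 8 integrin beta chains, 5 laminin alpha chains, 4 laminin beta chains and 3 laminin gamma chains. The antisense transcripts ITGA2-AS1, ITGA6-AS1 and ITGA9-AS1 matched the symbols but are not protein-coding, and were left out.

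Integrins are surface receptors built from 1 alpha and 1 beta chain, and the alpha chain largely sets which matrix protein a receptor binds. Laminins are secreted trimers of an alpha, a beta and a gamma chain that form the sheet of basement membranes and are bound by several integrins and by dystroglycan. Inside the cell, talins and kindlins bind the beta chain and link it to actin and to the kinases FAK and SRC, which is the route by which attached cells sense their substrate.

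143B is an established human osteosarcoma cell line, a RAS-transformed derivative of the HOS line. Its unmodified cells (genotype WT) were sequenced in adherent culture with serum (non-OSC) and as floating tumorspheres in B27-supplemented medium with EGF and basic FGF (osteosarcoma stem cells, OSC), so that attachment and medium changed together and cannot be told apart. In a second table, tumorspheres carried lentiviral short hairpins, either the control shCtrl or 1 of 2 hairpins against PDK1, the pyruvate dehydrogenase kinase that restrains the entry of pyruvate into mitochondria (shPDK1#1 and shPDK1#2). Each of the 5 conditions had 3 libraries, 15 in all. The sources used here do not say whether the 3 libraries came from separate cultures, so p-values measure the spread between these libraries, which may be technical.

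The libraries summed to between 7992505 and 11256530 expected counts, and levels are given as CPM, counts scaled for library size with TMM factors, with the mean ± SD of 3 libraries. The label of the line was checked against mesenchymal and osteoblast markers. VIM, COL1A1, SPARC and RUNX2 were present in every library, while SP7 stayed at no more than 1 count, and COL1A2, ALPL and BGLAP did not exceed 28 counts. Summed over their lists, leukocyte markers did not exceed 2.52 CPM, and endothelial markers did not exceed 6.72 CPM, epithelial markers 4.55 CPM and platelet markers 1.45 CPM in any library. The targeted gene PDK1 was at 45.4, 51.6 and 42.9 CPM in the non-OSC libraries and at 73.6, 69.9 and 67.5 CPM in the OSC libraries. With shCtrl it was at 46.7, 44.7 and 44.4 CPM, with shPDK1#1 at 28.98, 27.8 and 27.3 CPM and with shPDK1#2 at 18.3, 21.5 and 19.6 CPM, which left 62.01% and 43.7% of the shCtrl mean. Both falls passed the test (adjusted p = 7.13e-06 and 5.89e-11, edgeR quasi-likelihood test with Benjamini-Hochberg adjustment over all genes), and PDK1 was lower with shPDK1#2 than with shPDK1#1 (log2 fold change -0.50, SE 0.0908, adjusted p = 0.00024).

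Upstream sequences are shown for the 3 laminin chains that passed the test with an absolute log2 fold change of at least 1 between the cultures, LAMC1 and LAMA2, which were higher in OSCs, and LAMB3, which was lower. Each run is the 250 bases before an annotated RefSeq start on GRCh38.p14, written 5′ to 3′ on the strand of the gene. Capitals mark the letters TGANTCA, the element bound by AP-1 factors of the FOS and JUN family, which was searched on both strands from 250 bases before to 50 bases after each start.
LAMC1, chr1:183023170-183023419, plus strand: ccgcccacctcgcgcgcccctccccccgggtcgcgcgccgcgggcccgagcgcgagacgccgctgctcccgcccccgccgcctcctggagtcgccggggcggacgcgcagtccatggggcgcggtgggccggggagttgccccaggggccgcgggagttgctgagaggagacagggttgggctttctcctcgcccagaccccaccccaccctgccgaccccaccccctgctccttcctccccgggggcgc
LAMA2, chr6:128882888-128883137, plus strand: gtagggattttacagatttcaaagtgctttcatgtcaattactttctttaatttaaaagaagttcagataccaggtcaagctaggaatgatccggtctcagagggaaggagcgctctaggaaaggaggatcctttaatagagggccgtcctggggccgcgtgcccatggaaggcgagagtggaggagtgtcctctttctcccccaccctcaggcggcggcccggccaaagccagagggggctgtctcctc
LAMB3, chr1:209651375-209651624, minus strand: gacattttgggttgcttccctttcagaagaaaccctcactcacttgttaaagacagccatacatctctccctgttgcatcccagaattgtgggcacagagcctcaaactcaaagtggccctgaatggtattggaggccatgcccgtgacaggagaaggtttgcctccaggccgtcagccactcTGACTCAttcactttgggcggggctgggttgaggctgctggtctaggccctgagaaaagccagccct

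The LAMB3 sequence lies before 1 of its 3 listed starts, held 1 match that begins 67 bases before that start, and shares 20 bases with annotated exons. It is shown because it holds the match, and the other listed starts of LAMB3 held none. Among integrin chains past the same limits, the listed starts of ITGA4, lower in OSCs, and of ITGAV, ITGB8 and ITGA8, all higher, held no match and are not shown. ITGB4 and ITGA7, also higher in OSCs and past these limits, had no listed start and were not searched. The LAMC1 and LAMA2 sequences shared no base with annotated exons and held no match. The RefSeq table listed 33 starts for 26 of the 38 members, and TGANTCA was found at 3 of them (9.09%), which belong to LAMB3, ITGA5 and LAMA3, against 7.71% of all 35116 starts in the table. The letters TGACGTCA, the related cyclic AMP response element, were at none of the 33 starts and at 1.85% of all starts. These matches describe letters only.

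Of the 38 chains, 30 passed the filter on low counts in each table. ITGAD, ITGAL, ITGAM, ITGAX, ITGB6, ITGB7 and LAMB4 passed in neither, with at most 11 counts in any library, ITGB2 was tested only in the OSC table and ITGA2B only in the hairpin table. ITGAL, ITGAM, ITGAX, ITGAD and ITGB2 are chains of leukocyte receptors, and ITGAD was at 0 counts in all 15 libraries, which allows up to 3 counts in each. ITGB7, which pairs with the alpha chains ITGA4 and ITGAE in lymphocytes, reached 3 counts.

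Scaled per kilobase of merged exons, LAMC1, the gamma chain of most laminins, had the highest level among the members in OSCs, at 102 CPM per kb. It was followed by the alpha chains ITGA2 (78.3 CPM per kb), ITGA6 (72.3 CPM per kb) and ITGA5 (68.6 CPM per kb). ITGB1, the beta chain shared by most integrins, was at 46.2 CPM per kb on this scale. Scaled by the longest transcript instead, ITGB1 stood first in OSCs with 119.9 CPM per kb and LAMC1 came second with 109 CPM per kb, so the order between genes depends on the length used, while comparisons of 1 gene between conditions do not.

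Most chains differed between sphere and adherent culture. Of the 30 chains tested, 18 were higher and 8 lower in OSCs than in non-OSCs, against 63.9% of all 14287 genes tested that passed in either direction, 32.4% higher and 31.5% lower. The median log2 fold change was 0.51 over the 30 chains and -0.0053 over all genes tested. Of the 19 integrin chains tested 13 were higher and 3 lower, and of the 11 laminin chains 5 were higher and 5 lower. For 26 of the 30 chains the OSC and non-OSC libraries did not overlap, against 66.9% of all genes.

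**Figure D1:**
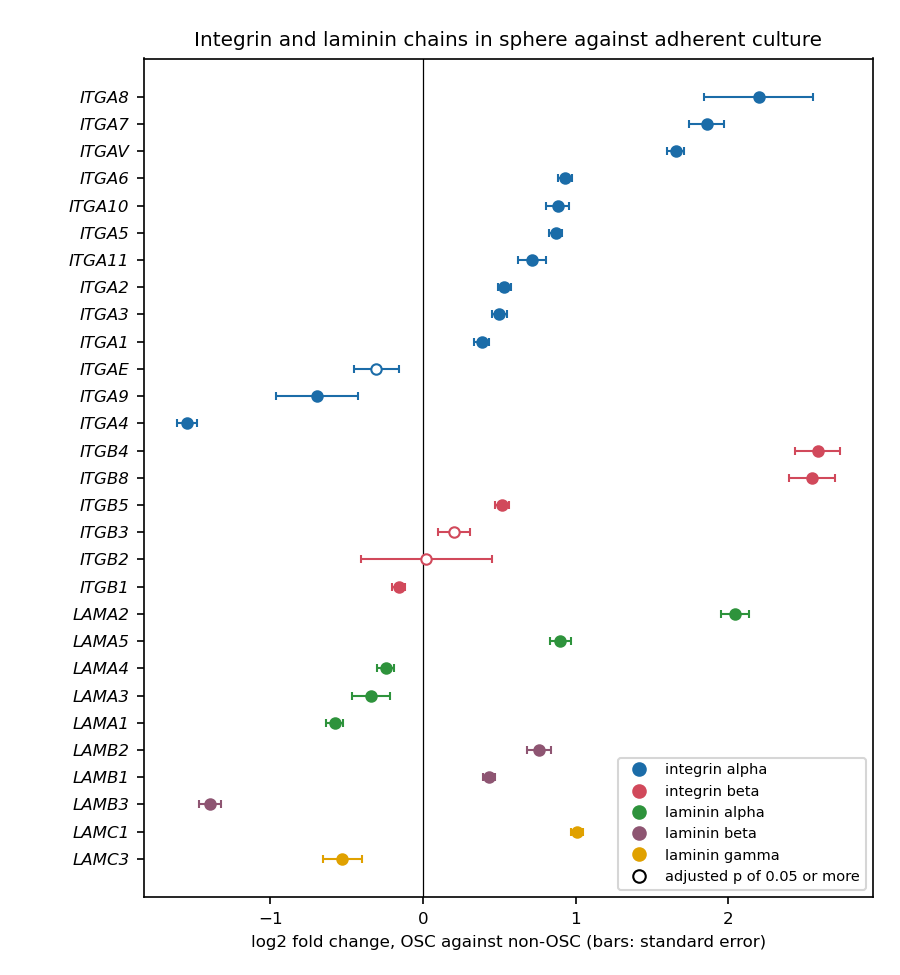
The x axis gives the log2 fold change of OSC against non-OSC and each row is 1 of 29 of the 30 chains tested, coloured by family, with bars for the standard error and open points for an adjusted p of 0.05 or more. Points right of 0 are higher in OSCs, and ITGB4, ITGB8, ITGA8 and LAMA2 lie beyond 2 while ITGA4 and LAMB3 fell by more than 1.

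ITGAV, the alpha chain of the receptors for vitronectin, osteopontin and latent TGF-beta, was at 150.1, 137 and 129 CPM in the non-OSC libraries and at 455, 427 and 433 CPM in the OSC libraries. The OSC libraries were all above the non-OSC libraries, and the mean was 3.15 times as high (log2 fold change 1.66, SE 0.0536, adjusted p = 1.09e-16). ITGAV spans positions 186590010 to 186680901 of chromosome 2 (GRCh38, plus strand). Its beta partners did not move alike. ITGB8, which pairs only with ITGAV in the receptor that activates latent TGF-beta, rose from 5.88, 3.72 and 4.52 CPM to 28.2, 28.8 and 26.5 CPM (log2 fold change 2.55, SE 0.149, adjusted p = 2.18e-12). ITGB5, whose receptor binds vitronectin, rose less, from 238 ± 7.204 to 341 ± 2.79 CPM (log2 fold change 0.52, SE 0.0449, adjusted p = 1.56e-09). ITGB3, another beta partner, was at 37.1, 26.8 and 33.6 CPM in non-OSC and 38.6, 39.6 and 34.4 CPM in OSC libraries, which overlapped, and did not pass the test (log2 fold change 0.20, SE 0.106, adjusted p = 0.098). Without non-OSC replicate 1 the rise of ITGB3 passed (adjusted p = 0.014). ITGB6 did not exceed 4 counts.

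Laminin receptor chains were read next. ITGA6, the alpha chain that pairs with ITGB4 in the hemidesmosome and with ITGB1 elsewhere, was at 266, 253 and 239.8 CPM in non-OSC libraries and at 478, 492 and 478 CPM in OSC libraries (log2 fold change 0.93, SE 0.0461, adjusted p = 1.22e-13). ITGB4 itself was at 4.15, 3.94 and 5.73 CPM and at 27.7, 27.3 and 27.8 CPM, the largest log2 fold change of any member (log2 fold change 2.58, SE 0.146, adjusted p = 1.18e-12). The gene spans positions 75721328 to 75757818 of chromosome 17 (GRCh38, plus strand). The non-OSC libraries held 36 to 52 counts of ITGB4 and the OSC libraries 225 to 270, without overlap. ITGA7, a laminin receptor chain best known from muscle, was at 10.99, 12.7 and 15.2 CPM and at 44.8, 51.6 and 43.7 CPM, without overlap (log2 fold change 1.86, SE 0.114, adjusted p = 5.1e-12). ITGA3, the remaining alpha chain of this class, rose by less, from 297 ± 14.3 to 419.6 ± 17.9 CPM (log2 fold change 0.50, SE 0.0478, adjusted p = 7.26e-09).

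Among the collagen receptors, each of the 4 alpha chains was higher in OSCs. ITGA10 rose from 39.9 ± 0.801 to 73.5 ± 5.24 CPM (log2 fold change 0.88, adjusted p = 1.47e-09) and ITGA11 from 33.2 ± 1.08 to 54.5 ± 5.83 CPM (log2 fold change 0.71, adjusted p = 4.3e-07). ITGA2 rose from 427 ± 16.7 to 618 ± 15.1 CPM (log2 fold change 0.53, adjusted p = 3.66e-10) and ITGA1 from 163 ± 1.18 to 213 ± 9.35 CPM (log2 fold change 0.39, adjusted p = 8.19e-07). No library of OSCs overlapped a library of non-OSCs for these 4 genes. ITGA5, the fibronectin receptor chain, rose from 278 ± 12.7 to 507 ± 13.99 CPM (log2 fold change 0.87, adjusted p = 3.47e-13). ITGA8, which binds nephronectin, rose from between 4 and 25 counts to between 51 and 71 counts (log2 fold change 2.20, adjusted p = 1.42e-05).

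The related chains ITGA4 and ITGA9, which bind VCAM1 and the EDA form of fibronectin, went the other way. ITGA4 was at 195, 181 and 175 CPM in non-OSC libraries and at 67.8, 60.9 and 60.4 CPM in OSC libraries. The groups were far apart, with the OSC mean at 34.3% of the non-OSC mean (log2 fold change -1.54, SE 0.0639, adjusted p = 6.13e-15). The gene spans positions 181457202 to 181538940 of chromosome 2 (GRCh38, plus strand), and 26.4% of its exon length lies opposite CERKL, which held at most 15 counts in any library. ITGA9 fell from 4.31 ± 0.655 to 2.68 ± 0.471 CPM (log2 fold change -0.69, SE 0.269, adjusted p = 0.0291), a call at 19 to 52 counts per library that was lost without non-OSC replicate 1, non-OSC replicate 3, OSC replicate 2 or OSC replicate 3, and with DESeq2 (adjusted p up to 0.128). ITGB1, the common partner of most alpha chains here, was at 790.0, 740.5 and 721 CPM in non-OSC and 694, 669.9 and 655 CPM in OSC libraries, a small fall without overlap of the groups (log2 fold change -0.16, SE 0.0421, adjusted p = 0.00256). In stretches of 75 bases, 3.25% of its exon sequence is shared with the pseudogene ITGB1P1. ITGAE and ITGB2 did not pass the test (adjusted p = 0.0834 and 0.969). ITGAX, at 2 to 11 counts in this table, passed only without non-OSC replicate 3 or OSC replicate 1 (adjusted p = 0.0344 and 0.0445).

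**Figure D2:**
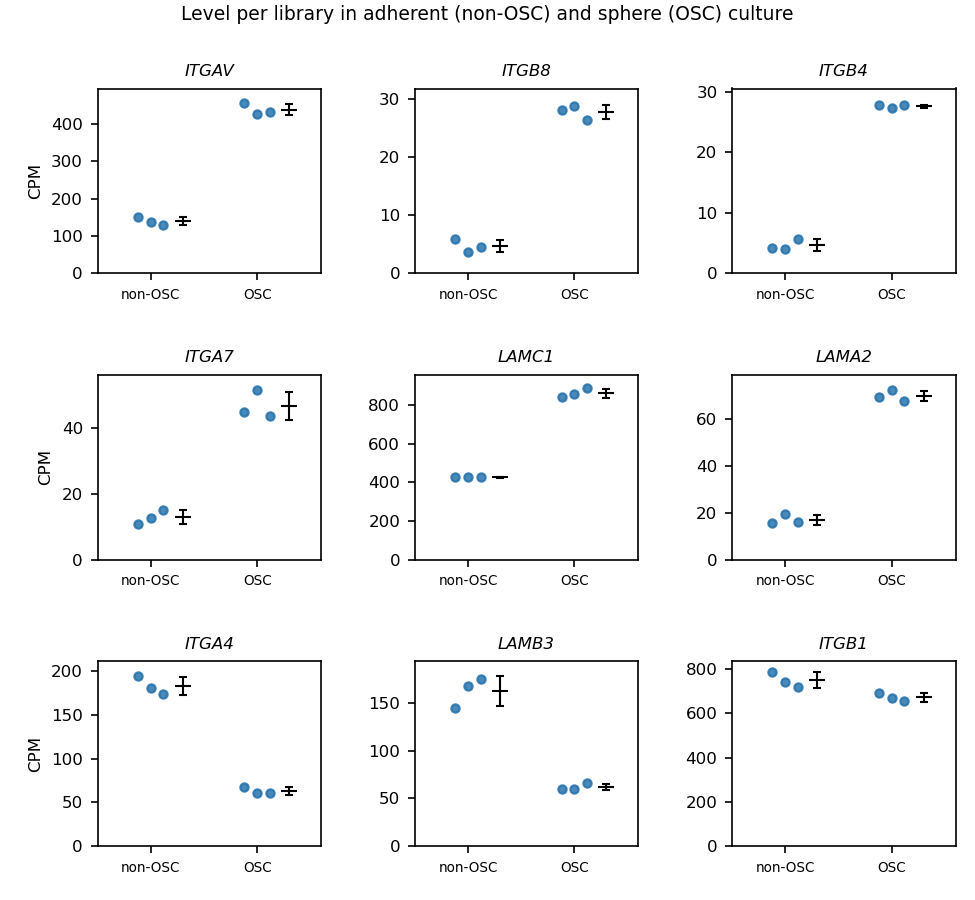
Each panel plots the CPM of 1 member on a linear y axis from 0, with 1 point per library for non-OSC and OSC and the mean ± SD in black beside the points. The OSC libraries lie above the non-OSC libraries for ITGAV, ITGB8, ITGB4, ITGA7, LAMC1 and LAMA2, and below them for ITGA4, LAMB3 and, by a narrow margin, ITGB1.

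Each laminin family was divided. LAMC1 was at 426, 425 and 429.7 CPM in non-OSC libraries and at 841, 855 and 887 CPM in OSC libraries, a difference far beyond the spread within either group (log2 fold change 1.01, SE 0.0393, adjusted p = 2.13e-15). LAMC1 spans positions 183023420 to 183145592 of chromosome 1 (GRCh38, plus strand). The gamma chain LAMC3 fell from 18.6 ± 0.845 to 12.9 ± 1.64 CPM (log2 fold change -0.53, adjusted p = 0.00109).

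Among the alpha chains, LAMA2, the muscle and nerve laminin chain, was at 15.7, 19.3 and 15.9 CPM in non-OSC libraries and at 69.2, 72.1 and 67.6 CPM in OSC libraries. The OSC mean was 4.11 times the non-OSC mean (log2 fold change 2.04, SE 0.0925, adjusted p = 2.84e-14). LAMA5, the widely expressed basement membrane chain, rose from 84.3 ± 5.69 to 157 ± 13.5 CPM (log2 fold change 0.90, SE 0.0681, adjusted p = 1.6e-10). The other 3 alpha chains fell. LAMA1, a chain of embryonic basement membranes, fell from 158 ± 1.07 to 106 ± 6.31 CPM (log2 fold change -0.58, adjusted p = 1.14e-08) and LAMA4, a chain of vessel walls, from 173 ± 7.85 to 146 ± 7.75 CPM (log2 fold change -0.24, adjusted p = 0.000705). LAMA3, an alpha chain of epithelial laminins, was at 33.5, 29.1 and 26.2 and 29.1, 21.04 and 20.7 CPM, which overlapped (log2 fold change -0.34, adjusted p = 0.0226). Its call was lost without non-OSC replicate 1, OSC replicate 2 or OSC replicate 3 (adjusted p up to 0.136).

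Among the beta chains, LAMB3, a beta chain of epithelial laminins, was at 145, 168 and 175 CPM in non-OSC libraries and at 59.8, 60.2 and 65.5 CPM in OSC libraries, so that the OSC mean was 38.1% of the non-OSC mean (log2 fold change -1.39, SE 0.0717, adjusted p = 2.51e-13). LAMB1 and LAMB2, the beta chains of the other common trimers, both rose. LAMB1 went from 488 ± 10.6 to 659 ± 15.2 CPM (log2 fold change 0.43, adjusted p = 4.36e-09) and LAMB2 from 65.99 ± 8.39 to 112 ± 6.78 CPM (log2 fold change 0.76, adjusted p = 2.54e-08).

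The makeup of each family was described from the level per kilobase of merged exons, as the share each chain took of its family in a library. Of the beta integrin level, ITGB1 took 54.8% ± 1.47 in non-OSC and 41.96% ± 0.753 in OSC libraries, and ITGB5 took 38.9% ± 1.85 and 47.5% ± 0.908. ITGB4 took 0.726% ± 0.164 and 3.71% ± 0.0676, and ITGB8 0.3295% ± 0.0706 and 1.67% ± 0.0572. Both thus remained minor beta chains in OSCs beside ITGB1 and ITGB5. Of the beta laminin level, LAMB3 held 49.3% ± 1.28 in non-OSC and 20.5% ± 0.39 in OSC libraries, while LAMB1 held 37.2% ± 2.01 and 54.5% ± 0.814. Of the alpha laminin level, LAMA5 held 17.9% ± 0.819 and 32.2% ± 1.69, LAMA2 1.94% ± 0.221 and 7.74% ± 0.489, LAMA1 30.3% ± 0.875 and 19.6% ± 0.583 and LAMA4 43.7% ± 1.03 and 35.7% ± 0.501. Shares sum to the whole of a family, so a rise of 1 chain lowers the others. With the longest transcript as length each of these shares moved in the same direction, at other sizes, with ITGB1 at 68.8% and 56.8% and LAMB3 at 30.9% and 10.9%.

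**Figure D3:**
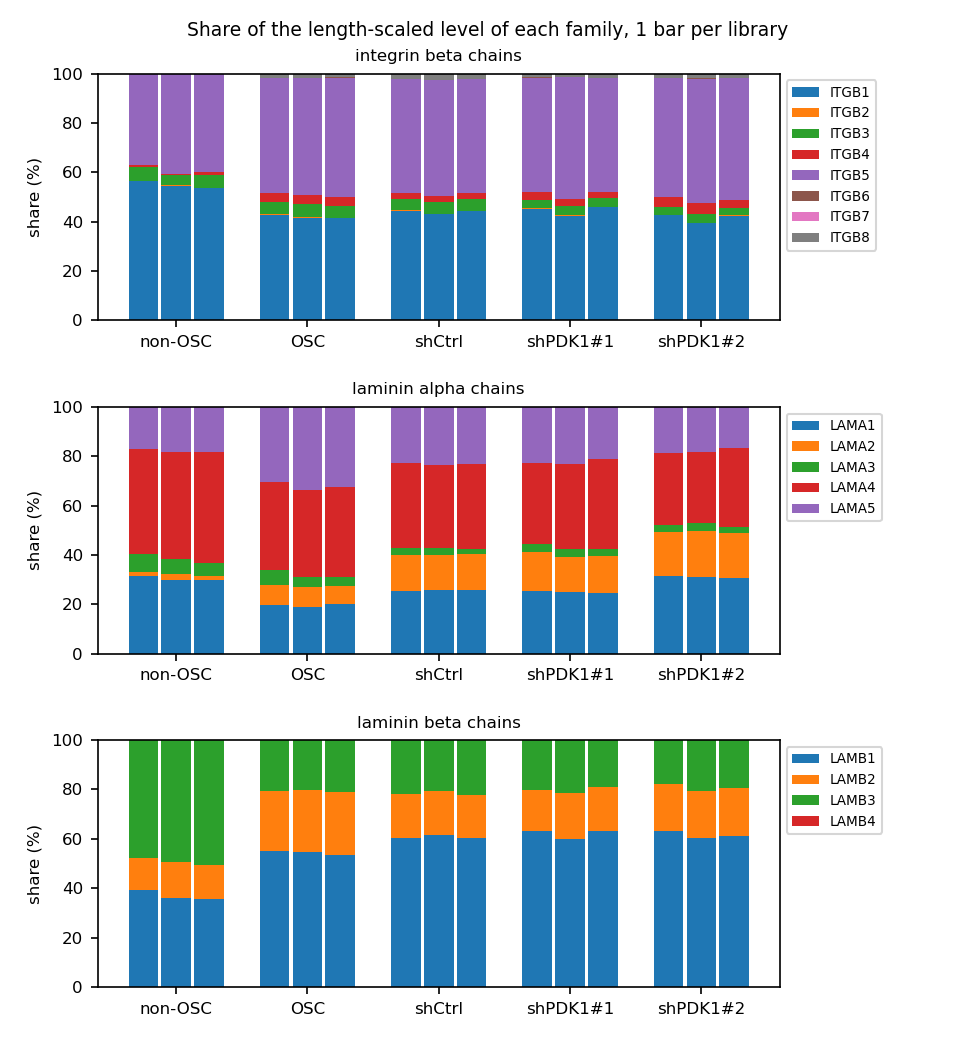
Stacked bars give the share, in percent, that each chain took of the summed level per kilobase of merged exons of its family, with 1 bar per library and 3 bars per condition, for the integrin beta, laminin alpha and laminin beta chains. The LAMB3 share is near 49.3% in non-OSC and 20.5% in OSC libraries, and the LAMA2 share is larger in OSC than in non-OSC libraries.

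The partners of these receptors were read from 4 lists. Of 33 tested activators and adhesion adaptors, 9 were higher and 16 lower in OSCs, 75.8% called against 63.9% of all genes, with a median log2 fold change of -0.11. The adaptor NEDD9, a relative of p130Cas, rose from 3.18, 4.597 and 4.08 to 37.3, 33.6 and 35.9 CPM (log2 fold change 3.17, SE 0.1396, adjusted p = 1.72e-14). LIMS1, the partner of integrin-linked kinase at adhesions, rose (log2 fold change 1.01, adjusted p = 1.22e-12), and APBB1IP, the RAP1 effector that recruits talin, fell (log2 fold change -1.03, adjusted p = 1.79e-05). Of 8 tested integrin inhibitors, 2 were higher and 2 lower, a share of 50% that is below the 63.9% of all genes. Those with the largest differences were KRIT1, which binds the inhibitor ITGB1BP1 (log2 fold change -0.47, adjusted p = 0.00057), NISCH, which binds ITGA5 (log2 fold change 0.36, adjusted p = 0.000676), and PTPN12, a phosphatase of p130Cas (log2 fold change -0.33, adjusted p = 0.00021).

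Of 20 tested other basement membrane genes and non-integrin laminin receptors, 13 were higher and 4 lower in OSCs, against 32.4% and 31.5% of all genes, with a median log2 fold change of 0.67. The syndecan SDC4 (log2 fold change 2.02, adjusted p = 1.6e-18), the perlecan gene HSPG2 (log2 fold change 1.92, adjusted p = 1.67e-16) and the collagen IV chain COL4A1 (log2 fold change 1.59, adjusted p = 2.06e-18) had the largest differences. HSPG2 went from 69.04, 73.4 and 80.99 to 263, 279 and 299.8 CPM, and the groups did not overlap. Of 20 tested integrin ligands other than laminins, 13 were higher and 3 lower, against the same shares of all genes, with a median of 1.15 on the log2 scale, led by the adhesion molecule L1CAM (log2 fold change 3.83, adjusted p = 5.4e-18), thrombospondin 1 (log2 fold change -2.63, adjusted p = 1.57e-19) and tenascin C (log2 fold change 2.57, adjusted p = 7.23e-20).

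Fewer chains differed from shCtrl in OSCs with PDK1 hairpins. With shPDK1#1, 1 of the 30 tested chains was higher and 4 were lower than with shCtrl, against 3.06% of all 14574 genes tested that passed in either direction (1.62% higher and 1.44% lower). With shPDK1#2, 6 were higher and 14 lower, against 26.2% of all genes (12% higher and 14.2% lower). The median log2 fold change over the 30 chains was -0.032 with shPDK1#1 and -0.11 with shPDK1#2, and over all genes 0.0024 and 0.0083. The libraries did not overlap those of shCtrl for 11 of the 30 chains with shPDK1#1 and for 23 with shPDK1#2, compared with 19.3% and 39.5% of all genes. The hairpins share their shCtrl libraries, so their values against shCtrl are given side by side and the difference between them was tested directly. In these bulk libraries, fewer cells of a kind and less RNA per cell cannot be told apart.

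**Figure D4:**
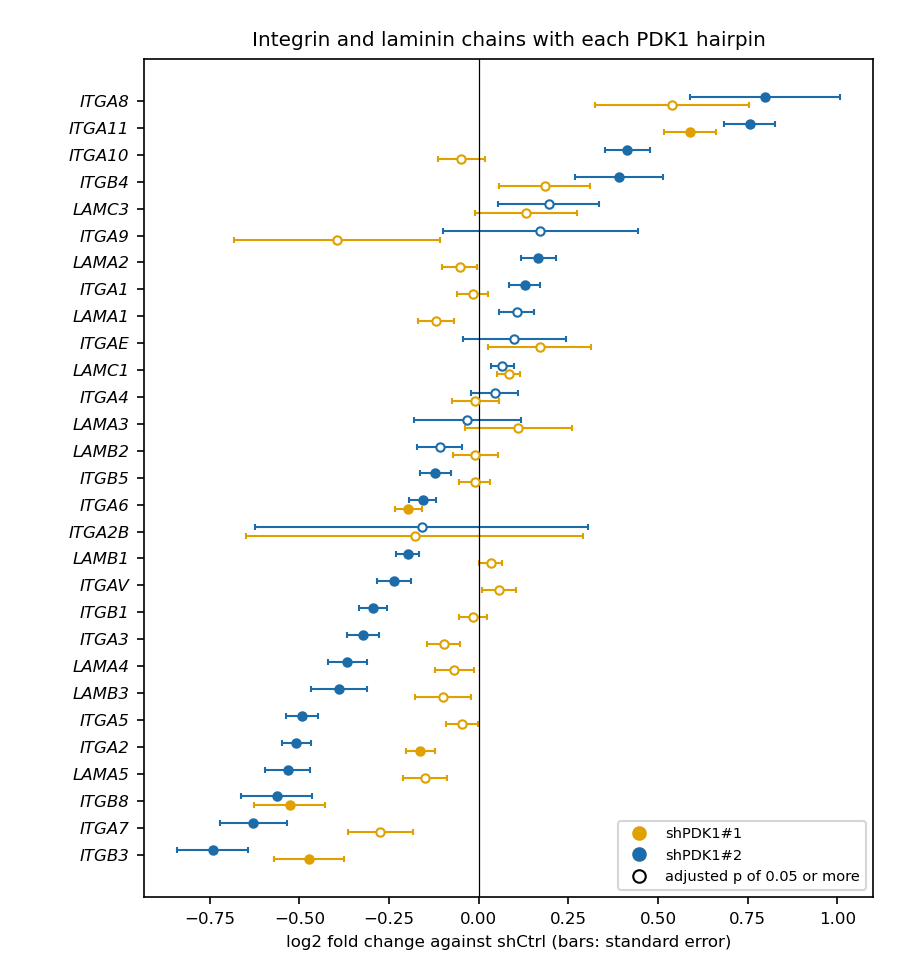
The x axis gives the log2 fold change against shCtrl of 29 of the 30 chains tested, with shPDK1#1 in yellow and shPDK1#2 in blue, bars for the standard error and open points for an adjusted p of 0.05 or more. ITGA11 is right of 0 and ITGB3, ITGB8, ITGA6 and ITGA2 are left of 0 with filled points for both hairpins, while ITGA5, LAMA5, ITGB1 and LAMA4 have filled points only for shPDK1#2.

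The chains called with shPDK1#1 were ITGA11, ITGB3, ITGB8, ITGA6 and ITGA2, and their values with shPDK1#2 are given beside. ITGA11, the collagen receptor chain of fibroblasts and osteoblasts, was at 49.9, 43.8 and 50.3 CPM with shCtrl, 68.4, 75.1 and 72.4 CPM with shPDK1#1 and at 75.2, 85.9 and 81.7 CPM with shPDK1#2. ITGA11 spans positions 68296532 to 68432163 of chromosome 15 (GRCh38, minus strand). Both hairpins were above shCtrl in every library (log2 fold change 0.59, SE 0.07199, adjusted p = 9.48e-06 for shPDK1#1 and log2 fold change 0.76, SE 0.0708, adjusted p = 6.96e-09 for shPDK1#2). The difference between the hairpins did not pass (log2 fold change 0.17, adjusted p = 0.094). Summed fibroblast markers, a list added after values were seen, rose with it in the hairpin table: 5.82 to 6.91 CPM with shCtrl, 10.2 to 11.9 CPM with shPDK1#1 and 24.7 to 26.4 CPM with shPDK1#2. POSTN and PDGFRB made up most of the rise of that sum. In the hairpin table FAP, at no more than 29 counts, and DCN had their lowest means with shPDK1#2. COL1A2, DCN, LUM and THY1 did not exceed 16, 7, 24 and 1 counts there. In the OSC table the marker sum went the other way from ITGA11, which was higher in OSCs. The sum was at 10.03 to 12.7 CPM in non-OSC and at 7.61 to 8.25 CPM in OSC libraries. The part of these markers in the ITGA11 result was not tested.

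Among the chains lower with shPDK1#1, ITGB3 of the vitronectin and osteopontin receptor was at 30.8, 31.9 and 31.4 CPM with shCtrl, 21.8, 23.1 and 22.9 CPM with shPDK1#1 and at 19.6, 20.7 and 15.8 CPM with shPDK1#2. ITGB3 spans positions 47253827 to 47313743 of chromosome 17 (GRCh38, plus strand). No hairpin library reached the shCtrl range (log2 fold change -0.47, SE 0.0974, adjusted p = 0.00498 and log2 fold change -0.74, SE 0.0992, adjusted p = 2.13e-06). The annotated exons of ITGB3 share 33.2% of their length with an unnamed gene on the same strand, which held at most 15 counts in any library. ITGB8 was at 31.03, 35.6 and 31.8 CPM with shCtrl, 21.1, 21.8 and 25.2 CPM with shPDK1#1 and at 20.5, 24.7 and 21.7 CPM with shPDK1#2. It fell with each hairpin (log2 fold change -0.53, SE 0.0991, adjusted p = 0.00224 and log2 fold change -0.56, SE 0.0987, adjusted p = 9.19e-05), and the difference between hairpins was -0.036 on the log2 scale (SE 0.103, adjusted p = 0.862).

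ITGA6 and ITGA2, abundant alpha chains for laminin and collagen, fell slightly. ITGA6 was at 666, 641 and 652 CPM with shCtrl, 578, 546 and 585 CPM with shPDK1#1 and at 604, 565 and 589.6 CPM with shPDK1#2 (log2 fold change -0.20, SE 0.0375, adjusted p = 0.00251 and log2 fold change -0.16, SE 0.0374, adjusted p = 0.00252). The gene ends 48.9 kb before PDK1 on chromosome 2, where it spans positions 172427354 to 172506459 of GRCh38, and 5.26% of its exon length lies opposite antisense genes that include PDK1-AS1, which held 28 to 43 counts in the hairpin table. ITGA2 was at 707, 694 and 691 CPM with shCtrl, 649, 588 and 633 CPM with shPDK1#1 and at 513, 469 and 487 CPM with shPDK1#2. The levels stood in that order without overlap (log2 fold change -0.16, SE 0.03998, adjusted p = 0.0198 and log2 fold change -0.51, SE 0.0403, adjusted p = 3.36e-10). The call of ITGA2 with shPDK1#1 was lost without any 1 of the shCtrl libraries, and without shPDK1#1 replicate 2 or 3 (adjusted p up to 0.102), while ITGA3 gained a call with shPDK1#1 without shPDK1#1 replicate 2 (adjusted p = 0.0312).

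**Figure D5:**
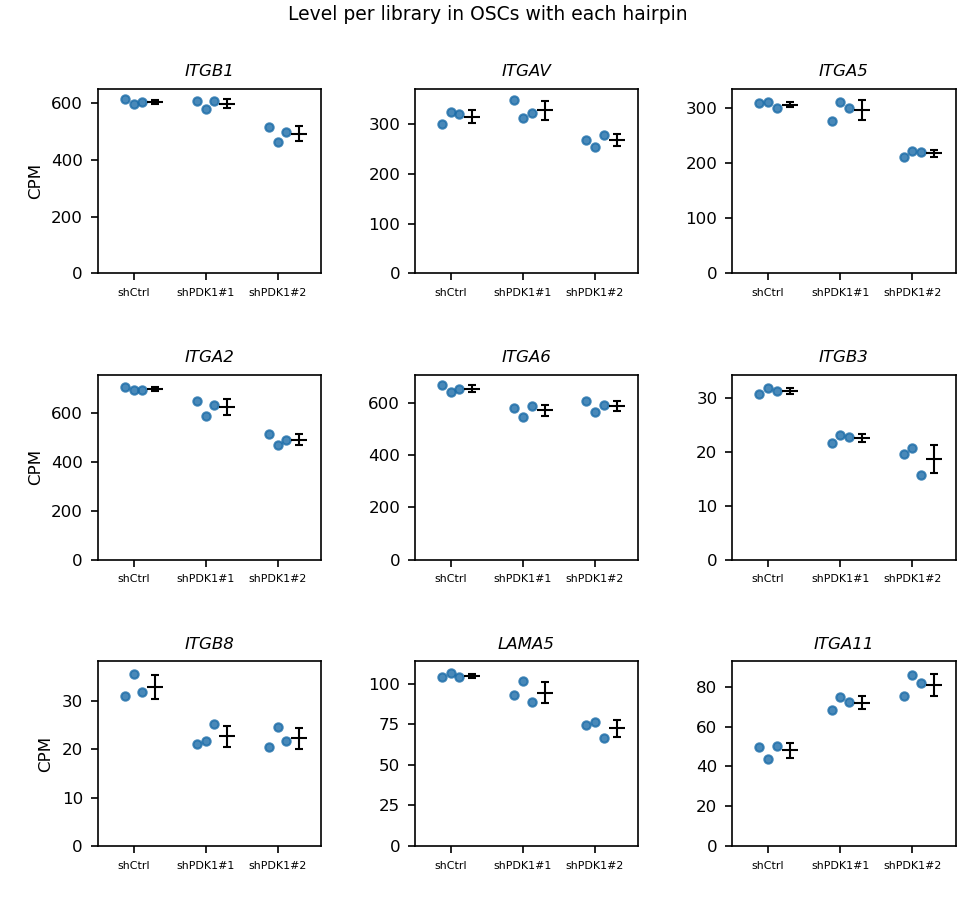
Each panel plots the CPM of 1 member on a linear y axis from 0, with 1 point per library for shCtrl, shPDK1#1 and shPDK1#2 and the mean ± SD in black beside the points. ITGA2 falls stepwise from 697 over 623 to 489.9 CPM, while ITGB1, ITGAV, ITGA5 and LAMA5 are lower with shPDK1#2 than with shPDK1#1.

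With shPDK1#2 the falls reached the common chains. ITGB1 was at 614, 598 and 605 CPM with shCtrl, 607, 582 and 608 CPM with shPDK1#1 and at 516, 464 and 500.2 CPM with shPDK1#2. The shPDK1#2 libraries were below all others (log2 fold change -0.30, SE 0.0391, adjusted p = 1.81e-06), and the value with shPDK1#1 did not pass (log2 fold change -0.017, adjusted p = 0.907). The direct difference between the hairpins passed (log2 fold change -0.28, SE 0.0391, adjusted p = 8.59e-06). ITGA5 was at 308, 309.8 and 300.1 CPM with shCtrl, 276, 311 and 301 CPM with shPDK1#1 and at 211, 222 and 219.5 CPM with shPDK1#2 (log2 fold change -0.49, SE 0.0449, adjusted p = 4.24e-09). Here too the shPDK1#2 libraries lay below all others, and the hairpins differed (log2 fold change -0.45, SE 0.0448, adjusted p = 5.02e-08). ITGAV was at 299, 325 and 321, 349, 312 and 322 and 269, 254 and 279 CPM in the same order of conditions, lower with shPDK1#2 than with shCtrl (log2 fold change -0.24, adjusted p = 0.000412) and than with shPDK1#1 (log2 fold change -0.29, adjusted p = 5.37e-05). Its partner ITGB5 was at 286, 293 and 281 CPM with shCtrl, 278, 303 and 274 CPM with shPDK1#1 and at 264, 267 and 261 CPM with shPDK1#2, lower in the last than with shCtrl (log2 fold change -0.12, adjusted p = 0.0391), a call lost without a filter on low counts (adjusted p = 0.0535) and without any 1 of the shCtrl or shPDK1#2 libraries (adjusted p up to 0.153).

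The laminin receptor chains ITGA3 and ITGA7 were lower with shPDK1#2. ITGA3 was at 322, 326 and 327 CPM with shCtrl, 288, 327 and 295 CPM with shPDK1#1 and at 258, 269.7 and 252 CPM with shPDK1#2 (log2 fold change -0.32, adjusted p = 4.83e-06, with -0.22 and adjusted p = 0.000859 between the hairpins). ITGA7 was at 35.5, 33.9 and 29.1 CPM with shCtrl, 27.9, 25.96 and 27.9 CPM with shPDK1#1 and at 21.3, 21.7 and 20.8 CPM with shPDK1#2 (log2 fold change -0.63, adjusted p = 9.49e-06). The difference of ITGA7 between the hairpins (log2 fold change -0.35, adjusted p = 0.0101) was lost without shPDK1#1 replicate 3 (adjusted p = 0.0509).

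Some chains were higher with shPDK1#2. The collagen receptor chain ITGA10 was at 77.7, 81.1 and 70.4 CPM with shCtrl, 74.3, 72.3 and 75.6 CPM with shPDK1#1 and at 95.6, 109 and 101 CPM with shPDK1#2. It was above every other library with shPDK1#2 (log2 fold change 0.41, SE 0.06302, adjusted p = 1.42e-05 against shCtrl and log2 fold change 0.46, SE 0.0629, adjusted p = 5.85e-06 against shPDK1#1). ITGA1, also a collagen receptor chain, was at 299, 291 and 289, 302, 279.6 and 289 and 334, 303 and 325 CPM in the same order (log2 fold change 0.13, adjusted p = 0.0283 against shCtrl and log2 fold change 0.15, adjusted p = 0.0201 between the hairpins). The first call was lost without shCtrl replicate 2 or 3 or shPDK1#2 replicate 1 or 3 (adjusted p up to 0.165), and the second without shPDK1#1 replicate 2 or 3 or shPDK1#2 replicate 1 or 3 (adjusted p up to 0.136). Exons of ITGA1 share 5.77% of their length with same-strand genes, mainly PELO. ITGA8 rose from 34 to 42 counts with shCtrl to 68 to 80 counts with shPDK1#2 (log2 fold change 0.80, adjusted p = 0.0054). With shPDK1#1 it was at 57 to 59 counts (log2 fold change 0.54, adjusted p = 0.218), and the difference between the hairpins did not pass (adjusted p = 0.425). ITGB4 was at 15.1, 16.5 and 15.5 CPM with shCtrl, 20.9, 18.01 and 15.2 CPM with shPDK1#1 and at 21.05, 23.1 and 17.7 CPM with shPDK1#2. Its rise with shPDK1#2 (log2 fold change 0.39, adjusted p = 0.0203) was lost without shCtrl replicate 1 or 3 or shPDK1#2 replicate 1 or 2 (adjusted p up to 0.11). For ITGB4 neither the value with shPDK1#1 (adjusted p = 0.566) nor the difference between the hairpins (adjusted p = 0.273) passed.

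Of the 4 collagen receptor alpha chains, ITGA1, ITGA10 and ITGA11 thus rose with shPDK1#2 and ITGA2 fell, and the 3 laminin receptor alpha chains ITGA3, ITGA6 and ITGA7 fell. ITGA4, ITGA9, ITGAE and ITGA2B passed the test with neither hairpin (adjusted p from 0.665 to 0.847 with shPDK1#2).

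No laminin chain was called with shPDK1#1 by edgeR, where 4 of 11 had an unadjusted p under 0.05, or by DESeq2, where 3 did. Of all genes tested, only 3.06% were called with shPDK1#1, so few calls among 11 chains would be near that share. With shPDK1#2, 1 rose and 4 fell, 45.5% called against 26.2% of all genes (12% higher and 14.2% lower). LAMA5 was at 104, 106 and 104 CPM with shCtrl, 93.3, 101 and 88.96 CPM with shPDK1#1 and at 74.3, 76.5 and 66.5 CPM with shPDK1#2. The shPDK1#2 libraries were below all others (log2 fold change -0.53, SE 0.0623, adjusted p = 2.79e-07 against shCtrl and log2 fold change -0.38, SE 0.0627, adjusted p = 7.15e-05 against shPDK1#1). LAMA4 was at 133, 128 and 128, 114, 126 and 129 and 98.2, 98.7 and 104 CPM in the same order (log2 fold change -0.37, adjusted p = 1.01e-05 and log2 fold change -0.30, adjusted p = 0.000266). LAMB1 was at 718, 703 and 713 CPM with shCtrl, 732, 722 and 731 CPM with shPDK1#1 and at 621, 613 and 626 CPM with shPDK1#2 (log2 fold change -0.20, adjusted p = 4.35e-05 and log2 fold change -0.23, adjusted p = 9.85e-06). LAMB3 was at 64.6, 59.2 and 66.1 CPM with shCtrl, 58.2, 64.7 and 54.2 CPM with shPDK1#1 and at 43.4, 52.1 and 49.5 CPM with shPDK1#2 (log2 fold change -0.39, adjusted p = 0.000496). The LAMB3 difference between the hairpins (log2 fold change -0.29, adjusted p = 0.012) was lost without shPDK1#1 replicate 2 or shPDK1#2 replicate 1 (adjusted p up to 0.104).

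LAMA2 was the laminin chain that rose with shPDK1#2, at 121, 120.1 and 121 CPM with shCtrl, 119.5, 115 and 115 CPM with shPDK1#1 and at 132, 139.8 and 135 CPM with shPDK1#2. The rise was small (log2 fold change 0.17, SE 0.0484, adjusted p = 0.0117), was lost without shPDK1#2 replicate 2 (adjusted p = 0.0513), and the hairpins differed (log2 fold change 0.22, adjusted p = 0.00197). LAMA1 was higher with shPDK1#2 than with shPDK1#1 (log2 fold change 0.22, SE 0.04900, adjusted p = 0.00177) but did not pass against shCtrl with either hairpin (log2 fold change -0.12 with shPDK1#1 and 0.11 with shPDK1#2). LAMC1 was at 945, 955 and 959 CPM with shCtrl, 1003, 995.3 and 1033 CPM with shPDK1#1 and at 1007, 971 and 1016 CPM with shPDK1#2. It passed in no hairpin comparison (log2 fold change 0.084, SE 0.0324, adjusted p = 0.199 and log2 fold change 0.066, SE 0.0324, adjusted p = 0.143). LAMB2, LAMA3 and LAMC3 also passed in no comparison of the hairpin table.

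By share of the alpha laminin level per kilobase, LAMA5 took 23.2% ± 0.413 with shCtrl, 22.3% ± 1.08 with shPDK1#1 and 18.01% ± 0.978 with shPDK1#2, and LAMA4 took 34.1% ± 0.524, 34.7% ± 1.799 and 29.8% ± 1.64. LAMA1 took 25.6% ± 0.1303, 25.2% ± 0.3998 and 31.02% ± 0.489, and LAMA2 14.4% ± 0.1603, 14.9% ± 0.745 and 18.2% ± 0.301. Of the beta laminin level, LAMB1 took 60.7% ± 0.663, 62.2% ± 1.85 and 61.7% ± 1.55. Of the beta integrin level, ITGB3 took 4.85% ± 0.08701, 3.58% ± 0.111 and 3.35% ± 0.448.

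Tested directly, 14 of the 30 chains differed between shPDK1#2 and shPDK1#1, against 16.3% of all genes tested, with 4 higher and 10 lower with shPDK1#2, against 6.5% and 9.78%. The libraries of the hairpins did not overlap for 18 of the 30 chains, against 30.7% of all genes. ITGA1, ITGA10, LAMA1 and LAMA2 were higher, and ITGA2, ITGA3, ITGA5, ITGA7, ITGAV, ITGB1, LAMA4, LAMA5, LAMB1 and LAMB3 were lower. The largest of these differences were those of ITGA10 (0.46) and ITGA5 (-0.45). ITGB3 did not pass (log2 fold change -0.27, adjusted p = 0.0761), except without shPDK1#2 replicate 2 (adjusted p = 0.0442).

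The OSC and hairpin tables share no library. Of the 18 chains higher in OSCs than in non-OSCs, 10 were lower with shPDK1#2, which is 55.6% of the former and 71.4% of the 14 chains lower with shPDK1#2. Over all genes the corresponding overlap was 30.6% of those higher in OSCs and 68.1% of those lower with shPDK1#2. The 10 chains were ITGA2, ITGA3, ITGA5, ITGA6, ITGA7, ITGAV, ITGB5, ITGB8, LAMA5 and LAMB1. The 6 chains that rose with shPDK1#2 were all higher in OSCs as well, 33.3% of the 18, where over all genes 6.88% of those higher in OSCs and 18.6% of those that rose with shPDK1#2 were shared. ITGB1, LAMA4 and LAMB3 were lower in OSCs and with shPDK1#2, which is 37.5% of the 8 chains lower in OSCs and 21.4% of the 14 lower with shPDK1#2, against 6.11% and 13.1% over all genes. With shPDK1#1, 3 of the 18 chains were lower (ITGA2, ITGA6 and ITGB8) and 1 was higher (ITGA11), which is 16.7% and 5.56% of the 18, against 2.73% and 2.71% of all genes higher in OSCs. These are 75% of the chains lower and 100% of the chains higher with shPDK1#1, against 60.4% and 53.2% over all genes.

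Among the activators and adaptors, 1 of 32 tested was higher and 1 lower with shPDK1#1 (6.25% called, against 3.06% of all genes), and 3 were higher and 9 lower with shPDK1#2 (37.5% called, against 26.2%). NEDD9 was at 47.6, 36.3 and 41.9 CPM with shCtrl, 29.98, 27.5 and 31.6 CPM with shPDK1#1 and at 16.9, 16.7 and 18.4 CPM with shPDK1#2. It fell with each hairpin and the levels did not overlap (log2 fold change -0.49, SE 0.0955, adjusted p = 0.00309 and log2 fold change -1.27, SE 0.102, adjusted p = 4.21e-10). Vinculin (VCL), which links talin to actin, rose with shPDK1#1 (log2 fold change 0.18, adjusted p = 0.00836), and talin 2 (TLN2, log2 fold change -0.63, adjusted p = 3.55e-07) and kindlin 1 (FERMT1, log2 fold change -0.62, adjusted p = 1.05e-05) fell with shPDK1#2. Of the 8 inhibitors tested, none was called with shPDK1#1 by edgeR or DESeq2, both with 0 at an unadjusted p under 0.05. With shPDK1#2 37.5% were called, against 26.2% of all genes. There 1 rose, the docking protein DOK1 (log2 fold change 0.35, adjusted p = 0.00365), and 2 fell, CCM2 (log2 fold change -0.28, adjusted p = 0.00138) and PTPN12 (log2 fold change -0.18, adjusted p = 0.0233).

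Of the 20 other basement membrane genes and laminin receptors, 7 were higher and 3 lower with shPDK1#1 (50% called, against 3.06% of all genes), and 9 higher and 5 lower with shPDK1#2 (70% called, against 26.2%). HSPG2 was at 232, 230.2 and 221 CPM with shCtrl, 159, 184 and 160.0 CPM with shPDK1#1 and at 107, 117 and 93.8 CPM with shPDK1#2, in steps that did not overlap (log2 fold change -0.44, adjusted p = 5.31e-05 and log2 fold change -1.10, adjusted p = 7.27e-13). The laminin-binding nidogen NID1 fell with shPDK1#2 (log2 fold change -0.92, adjusted p = 1.09e-13), netrin 4 (NTN4) rose with shPDK1#1 (log2 fold change 0.81, adjusted p = 0.000475), and the collagen IV chain COL4A6 rose with both hairpins (log2 fold change 0.66, adjusted p = 3.89e-05 and log2 fold change 1.53, adjusted p = 1.99e-13). Of 22 tested integrin ligands other than laminins, 3 were higher and 0 lower with shPDK1#1, with 9 of the 22 at an unadjusted p under 0.05 and 2 called by DESeq2, and 10 were higher and 9 lower with shPDK1#2. These are 13.6% and 86.4% of the ligands, against 3.06% and 26.2% of all genes. COL3A1, a ligand of the collagen receptors, was at 4.605, 4.12 and 5.84 CPM with shCtrl, 17.3, 19.8 and 20.9 CPM with shPDK1#1 and at 90.4, 82.6 and 86.3 CPM with shPDK1#2. It rose in steps far beyond the spread (log2 fold change 2.02, SE 0.135, adjusted p = 1.69e-10 and log2 fold change 4.17, SE 0.111, adjusted p = 2.07e-19), beside the fibroblast marker sums given with ITGA11. COL1A1 rose with shPDK1#1 (log2 fold change 0.19, adjusted p = 0.00601), osteopontin (SPP1), a ligand of ITGAV receptors, rose with shPDK1#2 (log2 fold change 0.72, adjusted p = 1.24e-14), and L1CAM fell with shPDK1#2 (log2 fold change -0.90, adjusted p = 1.05e-07).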

How the data were processed

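RNA-seq was available for 15 libraries of the 143B line, 3 for each of 5 conditions, grouped by their titles and genotype labels. In the OSC table, the columns marked 2D and 3D were read as adherent (non-OSC) and sphere (OSC) culture, and 0 columns were left unmapped. Per the submitters' processing notes, FastQC 0.12.1, Trimmomatic 0.39, STAR 2.7.11a and RSEM 1.3.3 were used with the build GRCh38.p14. The values the authors deposited are RSEM expected counts per gene, with no normalization between libraries. The annotation and the strandedness are not given in the sources used here. Without strand, reads of overlapping genes on opposite strands cannot be told apart. Expressed genes lie opposite some called chains: ADRM1 (1568 to 2383 counts) opposite LAMA5, DLD (610 to 1205) opposite LAMB1 and BLOC1S1 (133 to 237) opposite ITGA7. Opposite-strand genes cover 2.53%, 2.60% and 1.82% of the exon length of LAMA5, LAMB1 and ITGA7. In stretches of 75 bases, 4.43% of the ITGA7 exon sequence is shared with other genes.

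Expected counts were rounded to whole numbers (6.85% and 6.92% of the values of the 2 tables were not whole). R 4.3.3 with edgeR 4.0.16 and limma 3.58.1 was used, with TMM normalization, filterByExpr by condition, and a quasi-likelihood test with Benjamini-Hochberg adjustment over all genes tested (14287 and 14574) and a threshold of 0.05. The 6 libraries of the OSC table and the 9 of the hairpin table were fitted separately and never compared in level. DESeq2 1.42.0, library size alone, no filter, at least 10 counts in every library, the compared groups alone, a replicate block and the omission of each library were alternatives. No library was a copy of another, since replicates differed beyond counting noise (chi-square over degrees of freedom from 1.95 to 3.70). The fit was also run on simulated counts with known changes, larger than those of the chains with the hairpins, and with a spread shared by all genes. That run does not bear on smaller changes.

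Symbols, coordinates and exons came from GENCODE 44, which held all 62700 identifiers, and starts from RefSeq. Python 3.11.15 and matplotlib 3.10.9 drew the plots. The chains and gene lists were chosen with earlier results of these data known. Values per library are given for chains with an adjusted p under 0.05 and either an absolute log2 fold change of at least 1 between OSC and non-OSC or a call with a hairpin, at a mean of at least 10 CPM in 1 group, and for ITGB1, ITGAV and LAMC1. From each list, at most 3 genes past the threshold with the largest change at 10 CPM or more are named. For 1 chain, values are not reported here, and it counts only in the totals.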

Additional observations from a re-analysis of the deposited data

Results flagged for a closer look

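For 14 of the 30 chains tested the response differed between the hairpins, by the direct test of shPDK1#2 against shPDK1#1 (edgeR quasi-likelihood test, adjusted over all genes). Of all genes tested, 16.3% passed in this comparison, 6.5% higher and 9.78% lower with shPDK1#2. Relative to shPDK1#1, the levels with shPDK1#2 were higher on the log2 scale by 0.15 for ITGA1, 0.46 for ITGA10, 0.22 for LAMA1 and 0.22 for LAMA2. They were lower for the integrin chains ITGA2 (-0.35), ITGA3 (-0.22), ITGA5 (-0.45), ITGA7 (-0.35), ITGAV (-0.29) and ITGB1 (-0.28). Among the laminin chains, LAMA4 (-0.30), LAMA5 (-0.38), LAMB1 (-0.23) and LAMB3 (-0.29) were lower. The same comparison gave -0.50 for PDK1 itself. With 1 hairpin at each PDK1 level, the extent of the knockdown and other properties of a hairpin cannot be told apart. Groups of 3 libraries were too small for a test of single libraries that stand apart.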

How the results depend on the processing

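The number of chains past the threshold stayed within 24 to 27 for OSC against non-OSC (26 as reported), 4 to 5 for shPDK1#1 (5), 17 to 20 for shPDK1#2 (20) and 12 to 15 for the difference between the hairpins (14) over all alternatives run. Apart from the omission of libraries, ITGA9 lost its OSC call with DESeq2, ITGA8 was not tested at a minimum of 10 counts in every library, and ITGB5 lost its shPDK1#2 call without a filter. Among the chains given with values per library, the alternatives turned the sign only of values that had not passed. Over all alternatives, the log2 fold change with shPDK1#1 ran from -0.044 to 0.0082 for ITGA1, -0.063 to 0.059 for ITGA4, -0.030 to 0.0040 for ITGB1 and -0.059 to 0.017 for ITGB5. Between the hairpins it ran from -0.015 to 0.11 for ITGA4, -0.11 to 0.055 for ITGB8 and -0.031 to 0.0047 for LAMC1. Equal replicate numbers in the titles were not taken as pairs in the main fit. Deviations from the group means correlated between -0.054 and 0.095 for equal numbers and between -0.076 and 0.046 for unequal numbers. With 3 libraries per group, these correlations cannot exclude a weak pairing. With the replicate block the counts of chains called were 26, 5, 20 and 14, the same chains in each comparison. Changes among chains with few counts, such as ITGA9 and ITGA8, are limited by depth, and levels are comparable between genes only as far as the length scaling holds.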
